A study of Mus musculus with 2 samples.

Results

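The genes that encode inhibitors of cyclin-dependent kinases (CDKs) were followed in mouse embryonic stem cells (mESCs) depleted of AIMP3, a component of the multi-tRNA synthetase complex encoded by Eef1e1. The 6 genes were Cdkn1a (p21) and Cdkn1b (p27) of the Cip/Kip family, and Cdkn2a (p16Ink4a and p19Arf), Cdkn2b (p15), Cdkn2c (p18) and Cdkn2d (p19) of the INK4 family. Their members on the array were the probes whose RefSeq accession in the scanner files belongs to 1 of the 6 genes, which gave 9 of 55681 probes and 18 spots on each array. All 9 were among the 33010 probes tested, were well above background in both channels on both arrays, and had no saturated spot.

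Both cell groups carried the same genotype, AIMP3f/f;cre-ERT2, in which a Cre recombinase fused to an oestrogen receptor removes the floxed AIMP3 allele once tamoxifen is given. AIMP3-depleted cells had received 2 μM tamoxifen for 4 days and control cells had received ethanol for the same time, in medium with LIF. RNA of AIMP3-depleted replicate 1 and replicate 2 was labelled with Cy5, and each was hybridised on its own array against 1 pool of control RNA labelled with Cy3. The control was therefore 1 sample measured on both arrays, its own spread did not enter any test, and the labels do not say whether the replicates were separate cultures, so p-values measured only the spread between these arrays. Dyes were not swapped and no control received tamoxifen, so a dye effect specific to a gene and an effect of tamoxifen or of Cre activity cannot be told apart from AIMP3 depletion. Eef1e1 itself was lower by 0.90 and 0.90 on the log2 scale on the arrays of replicates 1 and 2 (mean -0.90 ± 0.0067, SD, n = 2, limma adjusted p = 7.74e-05).

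CDKs bound to cyclins drive the cell cycle, and in G1 they phosphorylate the retinoblastoma proteins, which releases E2F factors and their target genes. INK4 proteins bind CDK4 and CDK6 and keep them from D cyclins, whereas Cip/Kip proteins bind complexes of cyclins with their kinases and inhibit CDK2 in particular. Proliferating mESCs are known for a short G1 phase, high CDK2 activity and low levels of these inhibitors, and Cdkn1a, Cdkn2a and Cdkn2b are widely used as markers of cell cycle arrest and senescence.

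Cdkn2b, Cdkn1a and Cdkn2a were raised by 2.43-, 2.32- and 1.96-fold by the brightest probe of each, Cdkn2c lay 1.27-fold above control, short of the threshold, and Cdkn2d and Cdkn1b stood at 1.10-fold and 1.05-fold (log2 ratios of 0.35 and 0.27 with median centring in place of loess, also short of the threshold). A probe was called changed where it differed over 1.5-fold with an unadjusted limma p under 0.05. By this rule 5 of the 9 member probes were raised and none was lowered, against 4.97% of all tested probes raised and 0.745% lowered. Counted by gene, 3 of 6 were raised, against 5.52% of the 24021 genes tested, and none was lowered, against 0.791%. These genes were 14974 with a RefSeq name, of which 6.68% were raised and 1.02% lowered, and 9047 accessions without one, each counted as a gene. Without the fold threshold, 7 of the 9 probes had an adjusted p under 0.05 and a positive ratio, which 27.7% of all tested probes had. By the methods' t-test on the same ratios, which uses the spread of each probe alone, the calls of Cdkn1a and of both Cdkn2a probes were lost. The 2 Cdkn2b probes passed both thresholds by that test, and none of the 9 passed after Benjamini-Hochberg adjustment.

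**Figure D1:**
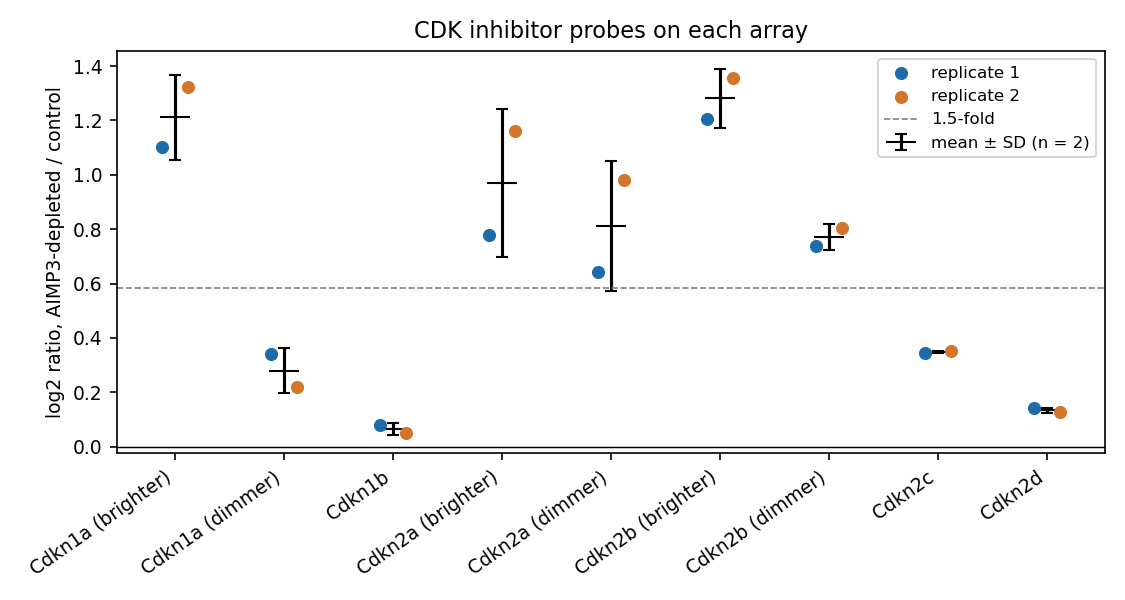
Log2 ratio of AIMP3-depleted over control (y axis) for each of the 9 CDK inhibitor probes (x axis) on the arrays of replicate 1 and replicate 2, with mean ± SD (n = 2); where a gene has a pair of probes they are ordered by brightness. The brighter Cdkn1a probe and both probes of Cdkn2a and Cdkn2b lie above the dashed line at 1.5-fold on both arrays, and the other 4 probes lie below it.

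Cdkn1a encodes p21, the Cip/Kip protein best known as a target of p53. Its brighter probe, A_51_P363947, is listed under NM_007669 and was printed 10 times on each array. Its log2 ratio was 1.10 in replicate 1 and 1.32 in replicate 2, a mean of 1.21 ± 0.16 (SD, n = 2, 95% confidence interval 1.06 to 1.37), with an adjusted p of 7.95e-05. The normalized log2 signal was 10.71 on both arrays in the control and 11.81 and 12.04 in AIMP3-depleted cells. Before dye normalization the ratio of background-subtracted signals was 3.68 in replicate 1 and 3.56 in replicate 2, so the higher value of replicate 2 came with the normalization. The ratio of its 10 spots ran from 1.06 to 1.19 (median 1.08) in replicate 1 and from 1.28 to 1.39 (median 1.32) in replicate 2. The spots of the arrays did not overlap, and the SD between spots was 0.040 and 0.032, below the SD of 0.16 between arrays.

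The second Cdkn1a probe, A_55_P1986282, is listed under NM_001111099 and had 1 spot on each array. Its log2 ratio was 0.34 and 0.22, a mean of 0.28 ± 0.084 (95% confidence interval 0.15 to 0.41), or 1.21-fold, with an adjusted p of 0.00561. It differed from 0 but not past the fold threshold, and its arrays were ordered the opposite way to those of the brighter probe. The brighter probe exceeded it by 0.76 in replicate 1 and by 1.10 in replicate 2, a mean difference of 0.93 ± 0.24 (SD, n = 2). No spot of the brighter probe came near the other probe on either array. A gap of this size was larger than in 99.3% of the 3832 genes with at least 2 tested probes, for which the median gap was 0.13. The second probe was close to background: its raw signal was 2.68 and 2.86 times the local background in the control channel and 4.03 and 3.63 times in the depleted channel, against 26.1 and 25.3 times and 80.5 and 77.1 times for the brighter probe. The offset of 50 added to each signal draws the ratio of a dim probe toward 0. With an offset of 0 the second probe had a log2 ratio of 0.38, and in the authors' table it had 0.49. The gap between the probes was then 0.84 and 0.75, so the probes disagreed under each of these settings, by less than with the offset of 50. What part signal strength played in the rest of the gap was not tested.

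**Figure D2:**
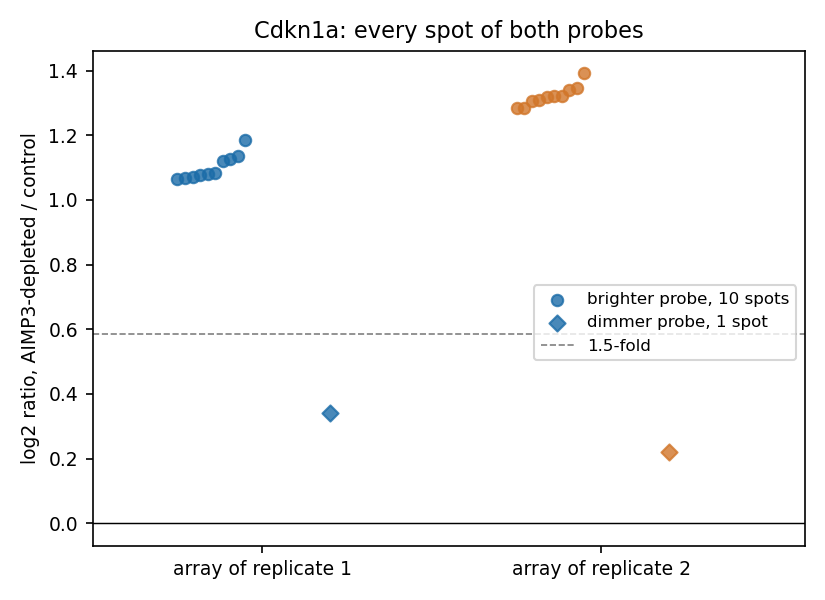
Log2 ratio of AIMP3-depleted over control (y axis) for every spot of both Cdkn1a probes on the arrays of replicates 1 and 2 (x axis); circles are the 10 spots of the brighter probe and diamonds the single spot of the dimmer one. The 10 spots cluster at 1.06 to 1.19 and at 1.28 to 1.39, far above the diamonds at 0.34 and 0.22.

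Cdkn1a has a pair of annotated starts on chromosome 17, 2790 bases apart in the GRCm38.p6 build, and the windows from 250 bases before to 50 bases after each start (RefSeq) are shown because the probes are listed under different Cdkn1a transcripts. In the upstream window, capitals mark a pair of CATG cores spaced as in a p53 response element (CATGNNNNNNCATG). In the downstream window, capitals mark GC boxes (GGGCGG), the type of site that Sp1 binds.
Cdkn1a, upstream start, chr17:29090729-29091028 (+ strand): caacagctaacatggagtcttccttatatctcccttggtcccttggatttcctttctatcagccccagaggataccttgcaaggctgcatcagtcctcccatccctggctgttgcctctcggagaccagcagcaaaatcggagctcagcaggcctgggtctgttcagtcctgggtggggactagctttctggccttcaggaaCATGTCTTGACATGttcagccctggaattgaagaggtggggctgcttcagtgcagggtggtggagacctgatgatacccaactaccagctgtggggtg
Cdkn1a, downstream start, chr17:29093519-29093818 (+ strand): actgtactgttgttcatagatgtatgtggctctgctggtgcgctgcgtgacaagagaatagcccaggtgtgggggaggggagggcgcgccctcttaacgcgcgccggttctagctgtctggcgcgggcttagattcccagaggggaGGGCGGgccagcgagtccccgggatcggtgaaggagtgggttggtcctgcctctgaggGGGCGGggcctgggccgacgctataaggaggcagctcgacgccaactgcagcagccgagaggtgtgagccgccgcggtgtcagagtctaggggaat
The paired cores began at position -48 from the upstream start and were absent from the downstream window and from the 7 other windows of these genes. Of 32851 promoter windows of the same length, 0.712% held this pattern. The downstream window held 2 GC boxes, searched on both strands, as did 19.5% of all windows with 2 or more. Which start gives rise to which accession, and where in the transcripts the probes lie, is not given in the sources used here, so the gap between the probes cannot be assigned to either start.

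Cdkn1b encodes p27, whose amount in cycling cells is known to be set largely by protein degradation. Its only probe, A_55_P2026562, had a log2 ratio of 0.08 in replicate 1 and 0.05 in replicate 2, a mean of 0.07 ± 0.022 (adjusted p = 0.283). Its log2 signal was 10.87 and 10.96 in the control and 10.95 and 11.01 in AIMP3-depleted cells. The 95% confidence interval of -0.05 to 0.18 lay within the fold threshold, and the sign of the mean turned with the array software's processed signals (-0.01). Cdkn1c (p57), the remaining Cip/Kip gene, was raised, with log2 ratios of 0.81 and 1.00 (mean 0.90 ± 0.13, adjusted p = 0.000138).

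Cdkn2b, which encodes the CDK4 and CDK6 inhibitor p15, had the highest ratio of the 6 genes. Its brighter probe, A_55_P1988183, had log2 ratios of 1.20 and 1.36, a mean of 1.28 ± 0.11 (95% confidence interval 1.15 to 1.42, adjusted p = 5.75e-05). The control signal was 11.09 and 11.03 and the depleted signal 12.29 and 12.39. Its dimmer probe, A_55_P1979526, under the same accession, NM_007670, had 0.74 and 0.80, a mean of 0.77 ± 0.048 or 1.71-fold (adjusted p = 0.000121). Both probes were raised, but the brighter exceeded the dimmer by 0.47 and 0.55 (mean 0.51 ± 0.060), a gap larger than in 95.0% of genes with several probes. In the authors' table the dimmer probe stood at 1.06 and the brighter at 1.35.

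Cdkn2a gives rise to p16Ink4a, a CDK4 and CDK6 inhibitor, and from another first exon to p19Arf, which stabilises p53 by binding Mdm2. Both of its probes are listed under NM_009877, the RefSeq transcript of Arf, and since the transcripts share exons and the probe sequences were not used here, p16Ink4a and p19Arf cannot be told apart. The brighter probe, A_55_P2008437, had log2 ratios of 0.78 and 1.16, a mean of 0.97 ± 0.27 (95% confidence interval 0.75 to 1.19, adjusted p = 0.000417). The dimmer, A_55_P2008438, had 0.64 and 0.98, a mean of 0.81 ± 0.24 or 1.75-fold (adjusted p = 0.000571). Both were past 1.5-fold on each array and higher in replicate 2, and their gap of 0.14 and 0.18 (mean 0.16 ± 0.032) was near the middle of genes with several probes, larger than in 58.2% of them. In the authors' table the brighter stood at 0.999 and the dimmer at 1.000, and with processed signals at 0.959 and 0.960, so the gap depended on the processing. The spread between arrays was wide: the SD of the brighter probe exceeded that of 99.0% of tested probes, and that of the dimmer 98.1%. The control signal of the brighter probe was 11.51 and 11.54 and the depleted signal 12.29 and 12.70 after normalization.

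The adjacent genes Cdkn2b and Cdkn2a lie on chromosome 4, on the minus strand. Their start windows (RefSeq, GRCm38.p6) are shown because both genes were raised on both arrays, with GC boxes in capitals.
Cdkn2b, chr4:89310983-89311282 (- strand): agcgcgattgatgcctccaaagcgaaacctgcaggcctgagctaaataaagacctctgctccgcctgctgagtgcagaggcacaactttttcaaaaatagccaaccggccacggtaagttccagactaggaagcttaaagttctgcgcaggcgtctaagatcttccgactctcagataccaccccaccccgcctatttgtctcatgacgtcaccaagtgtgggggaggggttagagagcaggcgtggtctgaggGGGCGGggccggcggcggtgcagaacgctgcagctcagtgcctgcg
Cdkn2a, upstream start, chr4:89294570-89294869 (- strand): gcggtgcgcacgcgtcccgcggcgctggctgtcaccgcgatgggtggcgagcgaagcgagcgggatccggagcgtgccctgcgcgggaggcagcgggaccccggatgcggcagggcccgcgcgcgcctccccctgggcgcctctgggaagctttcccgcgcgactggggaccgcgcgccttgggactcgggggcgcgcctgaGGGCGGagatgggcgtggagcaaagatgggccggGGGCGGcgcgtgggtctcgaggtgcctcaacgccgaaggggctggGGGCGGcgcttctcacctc
Cdkn2a, downstream start, chr4:89282143-89282442 (- strand): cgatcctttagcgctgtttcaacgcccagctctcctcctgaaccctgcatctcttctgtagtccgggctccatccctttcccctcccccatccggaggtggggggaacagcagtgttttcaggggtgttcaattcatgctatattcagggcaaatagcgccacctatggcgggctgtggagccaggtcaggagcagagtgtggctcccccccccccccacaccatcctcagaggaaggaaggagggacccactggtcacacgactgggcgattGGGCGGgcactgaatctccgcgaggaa
Cdkn2b held 1 GC box, the upstream Cdkn2a start 3 and the downstream Cdkn2a start 1, and 35.7% of all windows held at least 1. The p53-type pair of cores was found in none of the 3 windows.

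Cdkn2c and Cdkn2d, the other INK4 genes, encode p18 and p19 and are broadly expressed in dividing cells. The single Cdkn2c probe, A_55_P2074796, had log2 ratios of 0.35 and 0.35, a mean of 0.35 ± 0.0039 (95% confidence interval 0.24 to 0.46, adjusted p = 0.00154). The arrays differed very little, and the ratio was above 0 but under 1.5-fold. This probe was dim, at 1.74 and 2.06 times background in the control and 2.50 and 2.97 times in the depleted channel. Its ratio was 0.53 with an offset of 0, and 0.61 in the authors' table, where it passed the threshold. The Cdkn2d probe, A_55_P2022251, had 0.14 and 0.13, a mean of 0.13 ± 0.0095 (adjusted p = 0.0513), with control signals of 11.35 and 11.39 and depleted signals of 11.49 and 11.52.

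**Figure D3:**
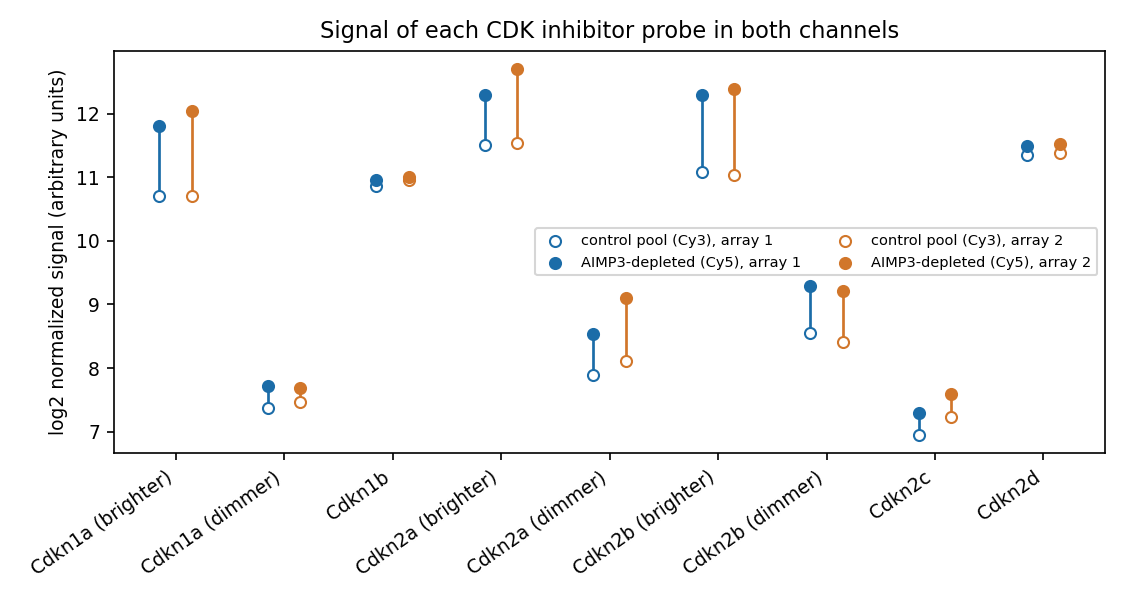
Normalized log2 signal in arbitrary units (y axis) of each CDK inhibitor probe (x axis) for the control pool (open, Cy3) and AIMP3-depleted cells (filled, Cy5) on each array; signals of different probes are not comparable, only the length of each line is. The lines of the brighter Cdkn1a and Cdkn2a probes run from 10.71 to 11.81 and from 11.51 to 12.29 on the first array, and from 10.71 to 12.04 and from 11.54 to 12.70 on the second.

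By the brightest probe of each gene, the mean ratios ran in the order Cdkn2b, Cdkn1a, Cdkn2a, Cdkn2c, Cdkn2d and Cdkn1b. Within the arrays of replicates 1 and 2, Cdkn2b exceeded Cdkn1a by 0.10 and 0.03 (mean 0.07 ± 0.048) and Cdkn1a exceeded Cdkn2a by 0.32 and 0.16 (mean 0.24 ± 0.12). These differences had the same sign on both arrays, although the values of either pair overlapped between arrays, and they were not tested. Cdkn2b and Cdkn2a did not overlap. Cdkn2a exceeded Cdkn2c by 0.43 and 0.81, Cdkn2c exceeded Cdkn2d by 0.20 and 0.22, and Cdkn2d exceeded Cdkn1b by 0.06 and 0.08, without overlap of the arrays. With median centring Cdkn2c (0.34) and Cdkn2d (0.35) changed places.

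The families did not separate the raised genes from the others. The mean ratio over the Cip/Kip genes Cdkn1a and Cdkn1b was 0.59 and 0.69 on the arrays of replicates 1 and 2 (0.64 ± 0.067), and over the 4 INK4 genes 0.62 and 0.75 (0.68 ± 0.094). The difference was -0.03 and -0.06, a mean of -0.04 ± 0.026, far less than the distance between members of either family. Its sign depended on the choice of members and scaling: it was 0.04 with Cdkn1c added to the Cip/Kip genes, 0.0036 with median centring in place of loess, and -0.19 with the mean of all probes of each gene, which gives the dim Cdkn1a probe more weight.

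**Figure D4:**
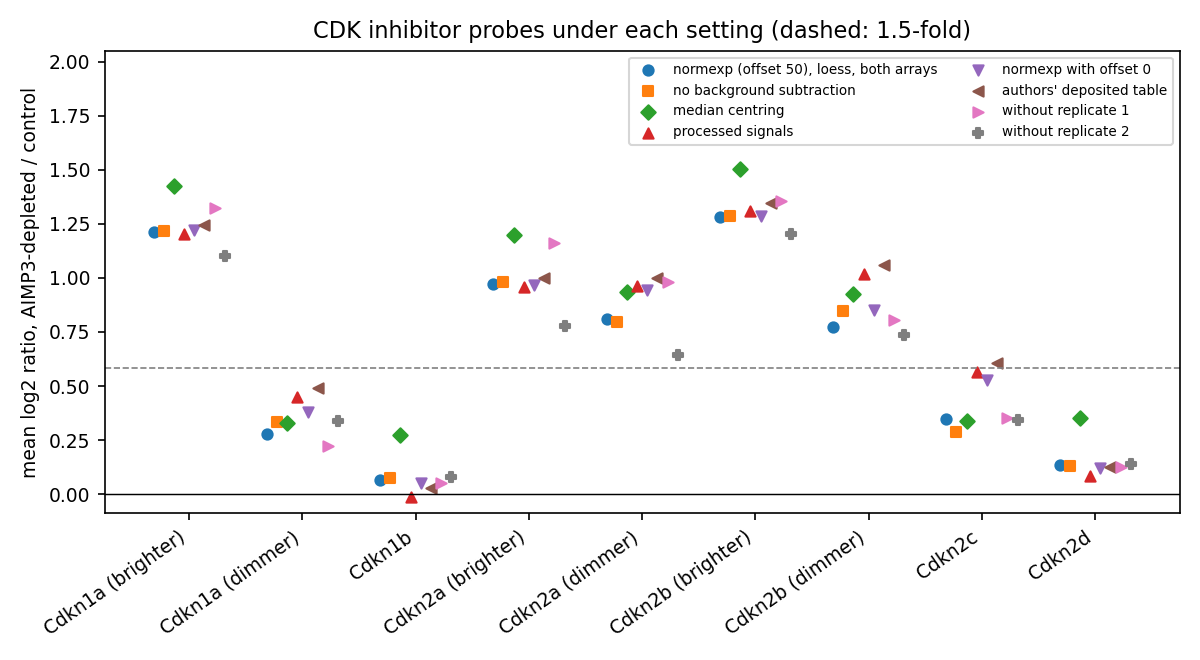
Mean log2 ratio of AIMP3-depleted over control (y axis) of each CDK inhibitor probe (x axis) under 8 settings of background correction, normalization and array choice; the dashed line is 1.5-fold. The brighter Cdkn1a probe and the Cdkn2a and Cdkn2b probes stay above the line under all 8, and Cdkn2c crosses it only in the authors' table (0.61).

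Of 11 kinases and cyclins, 1 was raised and none was lowered (median -0.03, against 0.02 over all genes tested), near the 5.52% and 0.791% of all genes. Ccnd2, a D cyclin, was the raised gene, with log2 ratios of 0.89 and 0.91 (mean 0.90 ± 0.014, adjusted p = 7.74e-05). Ccnd1 had 0.51 and 0.57 (mean 0.54), just under the threshold, which it passed with median centring, and Ccnd3 had a mean of -0.08. The partners of the INK4 proteins, Cdk4 and Cdk6, had means of 0.11 and 0.32, and Cdk6 passed the threshold in the authors' table and with processed signals. The Cdk6 probe was dim, at 2.57 and 2.61 times background in the control. Cdk2, the main Cip/Kip target, had a mean of -0.14, and the E cyclin Ccne1 -0.14. With median centring the means of Cdk2, Ccnd3 and Ccne1 turned positive (0.05, 0.26 and 0.24), which relative to the median of all genes was -0.13, 0.08 and 0.06. The probe of Ccne2, the other E cyclin, had a mean of -0.03 but was not well above background in every channel, and it stood at -0.17 in the authors' table.

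None of the 11 retinoblastoma and E2F genes passed by its brightest probe, where the median was 0.07 (-0.0075 with processed signals). With 5.52% of all genes raised and 0.791% lowered, a list of this size would hold few or none. Rb1 stood at 0.38, Rbl2 at 0.24 (0.53 in the authors' table) and Rbl1 at -0.32, while the highest was the repressor E2f6 at 0.53, which passed with median centring (0.75). Of 16 E2F target genes, most of them genes of DNA replication, none passed either, yet 14 had a negative ratio and 12 of these an adjusted p under 0.05, which 22.4% of all genes had with a negative ratio. Their median was -0.29, from Mcm6, a subunit of the replicative helicase, at -0.58 to Tyms, thymidylate synthase, at 0.13. Mcm6 passed as lowered without background subtraction (-0.59) and with an offset of 0 (-0.60). With median centring, which moved the median of all genes from 0.02 to 0.18, the median of the E2F targets turned to 0.05, or -0.13 relative to all genes.

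Among 9 tested genes for ubiquitin-dependent degradation of the inhibitors, none passed (median 0.11, from Dtl at -0.35 to Ddb1 at 0.28, which passed at 0.73 with median centring). With 5.52% of all genes raised and 0.791% lowered, a list of this size would hold few or none. Of the 9, 6 had a limma adjusted p under 0.05 (4 positive and 2 negative ratios), as had 12453 of all 24021 genes. Of 12 tested genes that regulate Cdkn1 transcription, 2 were raised and none was lowered (median 0.17), against 5.52% and 0.791% of all genes. The raised count was 5 with median centring and 3 in the authors' table. Mdm2, a p53 target that encodes its ubiquitin ligase, had log2 ratios of 1.08 and 1.05 (mean 1.06 ± 0.017, adjusted p = 5.85e-05), and Klf6, a zinc finger activator of Cdkn1a, 0.99 and 1.10 (mean 1.04 ± 0.077, adjusted p = 7.17e-05). Of 12 tested genes that regulate Cdkn2 transcription, 2 were raised and none was lowered (median 0.11), against the same shares of all genes, and 3 were raised with median centring. Ets1, an activator of p16Ink4a, had a mean of 0.95 ± 0.015 and was raised by both of its probes. Bmi1, a Polycomb repressor of the Cdkn2a locus, had a mean of 0.73 ± 0.045 by its brighter probe and 0.49 by its other probe, which did not pass.

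**Figure D5:**
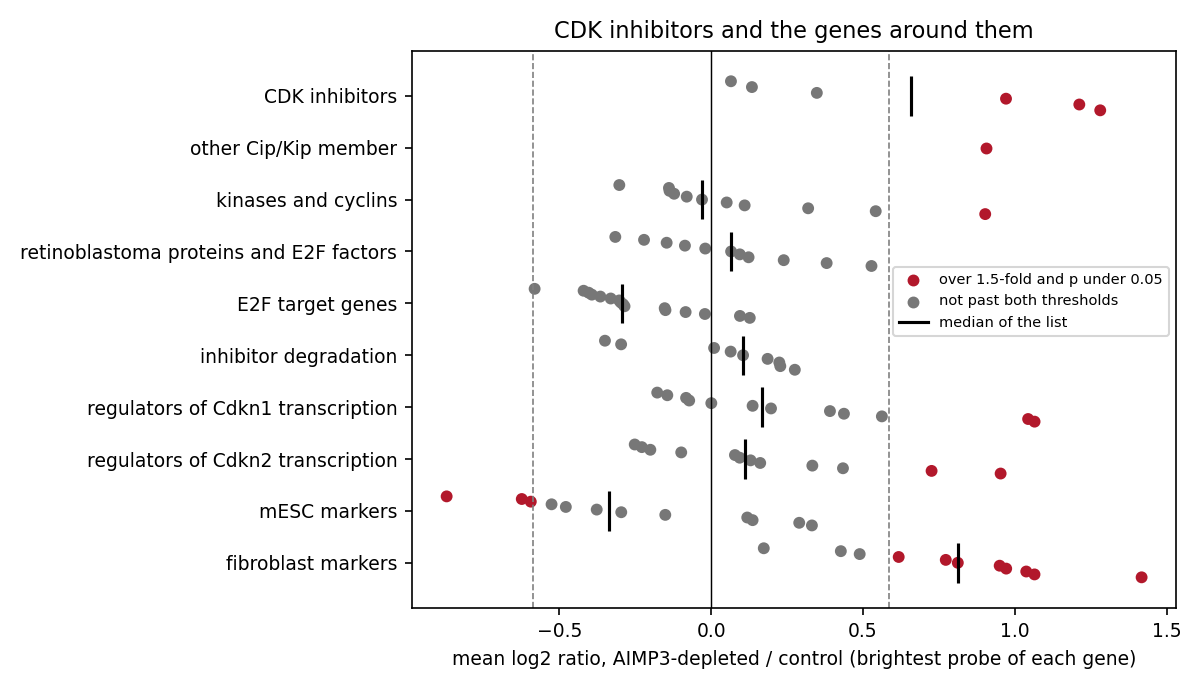
Mean log2 ratio of AIMP3-depleted over control (x axis) of the brightest probe of each gene, by list (y axis); red points are over 1.5-fold with an unadjusted p under 0.05, bars are list medians and dashed lines 1.5-fold in either direction. The CDK inhibitors split into 3 raised genes and 3 under the threshold, and the E2F targets lie mostly left of 0 without passing the threshold.

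Markers of cell types moved beside the raised inhibitors. The labels describe culture on feeder layers of fibroblasts and the methods conditioned medium from them during drug treatment, and 8 of 11 tested fibroblast markers were raised and none was lowered (median 0.81), against 5.52% and 0.791% of all genes tested. All 11 were well above background in both channels, and the log2 of their summed signal was 16.67 and 16.68 in the control and 17.33 and 17.31 in AIMP3-depleted cells. With median centring 10 of the 11 were raised. Fn1, which did not pass (0.43, but 0.89 and raised with median centring), made up 70.3% and 69.8% of the control sum, and without it the log2 of the sum was 14.92 and 14.95 in the control and 15.98 and 16.01 in AIMP3-depleted cells. All 12 mESC markers were well above background in both channels as well, with 3 lowered and none raised (median -0.34), and the log2 of their summed signal was 17.64 and 17.62 in the control against 17.23 and 17.18 in AIMP3-depleted cells. Without Fgf4, which made up 30.4% and 28% of the control sum, these values were 17.11 and 17.14 against 16.87 and 16.85. Because signals of different probes are not comparable, the sums and shares of both lists weight genes by probe brightness. They do not measure amounts of RNA or of cells. The lowered markers were Fgf4 (-0.87), Dppa3 (-0.62) and Tdgf1 (-0.59). With median centring none of the 12 passed, although relative to the median of all genes Fgf4 still stood at -0.65, Dppa3 at -0.59 and Tdgf1 at -0.38 and the list's median at -0.23. Tdgf1 did not pass with processed signals or in the authors' table. Of the other 9 markers, 5 had a negative ratio with an adjusted p under 0.05 (Sox2 at -0.53, Pou5f1 at -0.48, Nanog at -0.38, Utf1 at -0.30 and Zfp42 at -0.15), and 4 had a positive ratio, 2 of them with an adjusted p under 0.05 (Tfcp2l1 at 0.33 and Klf2 at 0.29). Whether the fibroblast markers came from feeder cells or from the mESCs themselves was not tested. Nor was the part of either in the rise of Cdkn1a, Cdkn2a and Cdkn2b. In bulk RNA a change in the number of cells of a type and a change in RNA per cell cannot be told apart.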

How the data were processed

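Total RNA of both AIMP3-depleted replicates and the control pool was hybridised on Agilent 2-colour arrays, both on 1 slide. The authors deposited scanner files with red (Cy5) and green (Cy3) median signals and background medians as intensity, processed signals as intensity, and a log10 ratio, all written by Feature Extraction (version 11.5.1.1 per the file headers), and a table of log2 ratios. That table equalled the log2 ratio of the processed signals plus a constant of 0.040 and 0.039 within 0.01 for 99.7% of values; its direction is therefore Cy5 over Cy3, and its constant has no stated source. The deposited log10 ratio was not used.

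Median signals were background corrected (normexp, offset 50), loess normalized within each array, and averaged over spots of a probe, leaving out control spots and the 215 and 227 outlier spots, in limma 3.58.1 (R 4.3.3). The test covered the 33010 probes that Feature Extraction flagged as well above background on each array in the red channel, the green channel or both, by lmFit and eBayes of the log2 ratio against 0, with Benjamini-Hochberg adjustment over all of them. The fit had 1 residual degree of freedom and 5.28 prior degrees of freedom. Its confidence intervals draw the variance of each probe toward that of the others. For a probe of wide spread they are narrower than its own 2 values would give. A probe counted as changed, by the thresholds of the study, beyond 1.5-fold where the p before adjustment was under 0.05. The arrays had no saturated spot, 59.3% to 60.6% of spots that are not controls were well above background in each channel, and precision is limited by there being 2 arrays. On simulated ratios for the 33010 probes, 100 of 100 probes with a log2 change of 1 and 100 of 100 with a change of 2 were recovered. The simulated noise had the same setting for every probe, and both changes lay past the fold threshold. Recovery therefore checked the calculation and its sign, and not the recovery of dim or variable probes.

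Gene names came from RefSeq accessions (27521 probes matched, annotation GRCm38.p6), and an accession that matched no name was counted as a gene of its own; each gene of a list was taken by its brightest tested probe. Skp2 was not analysed here; Zbtb17, Foxo3, Rnf2 and Lum did not pass the filter. Promoter windows existed for all 6 genes (9 windows). The text names all 9 member probes, Cdkn1c, Eef1e1, Cdk2, Cdk4, Cdk6, D and E cyclins, Rb1, Rbl1 and Rbl2, and of every other list the members that changed or, where none did, the highest and lowest; the fibroblast markers are given as a list, and Fn1 and the mESC markers that did not change were named after their values were seen. Members and lists were chosen with earlier results of these data known. The alternatives were no background subtraction, an offset of 0, median centring, processed signals, the authors' table, no filter or a stricter one, a 2-fold or an adjusted threshold, the methods' t-test, the mean of all probes, and each array alone; the offset of 0, the adjusted methods' t-test and Cdkn1c as a Cip/Kip member were chosen after seeing the data.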

Additional observations from a re-analysis of the deposited data

How the results depend on the processing

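Over 5 changes of background correction or scaling, the 9 member probes gave 43 values that kept their direction and side of the threshold and 2 that did not. Cdkn1b turned to -0.012 with processed signals, and Cdkn2c passed the threshold at 0.61 in the authors' table. Changed probes numbered 1886, and 352 at 2-fold, 16681 by adjusted p at any fold, 3742 in the authors' table, 3463 with median centring, 3734 with processed signals, 1201 by the methods' t-test and 0 after its adjustment. The raised share of changed probes was 87.0%, but 97.5% with median centring, 68.4% with processed signals and 74.8% in the authors' table. The 5 changed member probes became 2 at 2-fold, 2 by the methods' t-test and 0 after its adjustment; counted as genes they were 3. The 6 changed genes among Cdkn1c and the pathway lists, all raised, became 2 at 2-fold, 44 by adjusted p of which 21 were raised, 13 with median centring and 0 after adjustment of the methods' t-test. Those lists held 11, 11, 16, 9, 12 and 12 tested genes. Of all genes tested, 5.52% were raised and 0.791% lowered. By limma adjusted p at any fold, 12453 of all 24021 genes passed, 7066 of them with a positive ratio. The Cip/Kip minus INK4 difference of -0.04 became 0.044 with Cdkn1c, -0.13 in the authors' table and with processed signals, -0.19 over all probes, 0.0036 with median centring and -0.091 with an offset of 0. A single array has no test, so its calls rest on fold alone: they ranged from 1887 to 2039 probes, 5 to 5 member probes and 6 to 8 pathway genes, with -0.06 to -0.03 for the family difference, 0.76 to 1.10 for the Cdkn1a probe gap and -0.90 to -0.90 for Eef1e1. No paired analysis was possible because each ratio is already a difference within its array, and the single control pool has no replicates that a number could pair. Dim probes, among them the second Cdkn1a probe, Cdkn2c, Cdk6, Rbl2 and Ccne2, limit what was resolved.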

Other observations

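Rbl1, which encodes the retinoblastoma-related protein p107, also had probes that differed in call: the brighter probe had a mean log2 ratio of -0.32, and the dimmer, listed under another accession, was lowered with -0.56 and -0.67 on the arrays of replicates 1 and 2 (mean -0.61 ± 0.078, limma adjusted p = 0.000297). The dimmer probe was at 3.22 and 4.01 times background in the control channel.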
